A study of Homo sapiens with 6 samples.

Results

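The NDRG family (N-myc downstream-regulated genes) consists of the 4 paralogues NDRG1, NDRG2, NDRG3 and NDRG4, which were followed here in IOMM-Lee cells kept at low oxygen. IOMM-Lee is an established line of malignant, grade 3 meningioma, a tumour of the coverings of the brain. The 3 hypoxia libraries came from cultures held for 48 h in a hypoxia workstation at 0.2% O2, and were set against 3 normoxia libraries labelled with the same 48 h, whose oxygen level the labels do not give. All cultures shared medium with 10% serum, 37 °C and 5% CO2, and all come from a single cell line, so the results describe that line. The labels call the libraries biological replicates without saying more about how the cultures were separated. P-values therefore set the difference between the groups against the spread between these libraries only. The family was found by its gene symbols, which match 4 of the 61859 genes counted, and it was chosen by its measured change between these same hypoxia and normoxia libraries. The changes of the members are therefore given as a description, with no test.

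NDRG proteins share an alpha/beta hydrolase fold but are thought to lack the catalytic residues of active hydrolases. NDRG1, known as a stress-responsive gene, is repressed by MYC and MYCN and raised by hypoxia and metal chelation, and its protein is phosphorylated by SGK1 and then GSK3. Loss of NDRG1 in Schwann cells causes an inherited demyelinating neuropathy. NDRG2 is a candidate tumour suppressor that was reported as silenced in aggressive meningioma. NDRG3 protein is marked for degradation by the oxygen sensor EGLN1 and accumulates at low oxygen, where it binds lactate. NDRG4 is best known from brain and heart.

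Because the members are paralogues, the first question was whether reads could be confused between them. Aligned coding sequences were 65.4% to 70.3% identical over the 6 pairs of members, and the longest exact stretch shared by any transcripts of a pair ran from 17 to 27 bases. The longest of these, in the coding sequence of both NDRG2 and NDRG4, is printed to show how short the shared runs are. It lay in 21 annotated NDRG2 transcripts and 12 annotated NDRG4 transcripts. The read length is not given in the sources used here.
NDRG2 and NDRG4 shared coding stretch: tacttcctgcaaggcatgggctacatg
The second sequence is a promoter window of NDRG4, the member that was lower in hypoxia. It was taken from RefSeq (GRCh38.p14) at chr16:58463465-58463764 on the plus strand and spans 250 bases before to 50 bases after an annotated start. Capitals mark matches to ACGTG or GCGTG, the core bound by hypoxia-inducible factors, on either strand. This window had 4 matches, all of the GCGTG form on the minus strand and none overlapping, at -163, -79, -71 and -17 bases relative to the start.
NDRG4 promoter window: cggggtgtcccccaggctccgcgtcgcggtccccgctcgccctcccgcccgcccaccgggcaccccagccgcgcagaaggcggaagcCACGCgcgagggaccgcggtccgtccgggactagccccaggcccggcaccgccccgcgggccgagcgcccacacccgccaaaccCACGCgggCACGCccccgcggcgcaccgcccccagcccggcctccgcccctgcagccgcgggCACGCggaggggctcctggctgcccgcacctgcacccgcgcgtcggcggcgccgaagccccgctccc
Over all 35116 promoter windows of that length, 48.4% held at least 1 match and 4.4% held at least 4. Among windows within 5 percentage points of its 83% GC content, 6.92% held as many. The other 3 NDRG4 windows held none, and 3 of the 5 NDRG2 windows held 1 each, of which 2 windows overlap and hold the same match. The set of windows used here held none for NDRG1 or NDRG3, so theirs could not be read. A match is a run of letters and says nothing of binding in these cells.

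The libraries held 10980973, 10619864 and 18447885 counts in hypoxia and 19554178, 14685317 and 16049763 counts in normoxia. Levels are given as CPM, counts scaled to a common library size after TMM, which corrects for the make-up of a library. A count of 3, the upper limit that a count of 0 allows, came to 0.181 to 0.316 CPM in hypoxia and 0.133 to 0.184 CPM in normoxia, for counting error only. The first principal component, with 80.9% of the variance, separated the groups, and the second, with 7.83%, set hypoxia replicate 3 apart from the other hypoxia libraries. Results are therefore also given without that library. Of the meningioma markers VIM, DSP, MUC1, CDH2, CLDN1, CRABP2, SSTR2, PTGDS and PGR, 7 of 9 passed the filter on low counts. PTGDS and PGR had at most 2 counts in either group, and SSTR2 had 10 counts in hypoxia and 49 in normoxia. CRABP2 averaged 3.18 CPM in normoxia and 185 CPM in hypoxia, and MUC1 6.04 CPM in normoxia and 25.7 CPM in hypoxia. The cell type is taken from the labels, and these markers do not establish it. The 9 together summed to 6160 to 7734 CPM in hypoxia and 2761 to 3620 CPM in normoxia, nearly all of it VIM, a general mesenchymal gene that averaged 6149 CPM in hypoxia and 3052 CPM in normoxia. Of the 9, 4 rose and SSTR2 fell, a call that did not hold in DESeq2 (adjusted p = 0.0733), with the replicate block (0.0601) or with any of 4 libraries left out in turn (0.059 to 0.124). Among the tested markers 71.4% were called, against 62.2% of all tested genes. The 5 leukocyte markers summed to 0.722 to 1.27 CPM in hypoxia and 0.184 to 0.754 CPM in normoxia, and none passed the filter. The 5 endothelial markers summed to 1.69 to 5.18 CPM in hypoxia and 3.51 to 4.26 CPM in normoxia, and the 5 epithelial markers to 142 to 167 CPM in hypoxia and 127 to 175 CPM in normoxia. KRT8 and KRT18 carried the epithelial sum, and EPCAM, KRT5 and TP63 were at or near 0.

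NDRG1 lies on the minus strand of chromosome 8 at 133237171 to 133302022 (GRCh38). It had 84281, 95524 and 178921 counts in the hypoxia libraries and 2241, 1809 and 2146 counts in the normoxia libraries. That is 8887, 9737 and 10770 CPM in hypoxia, against 99.4, 111 and 125 CPM in normoxia. The groups lay far apart, with the lowest hypoxia library above the highest normoxia library. NDRG1 averaged 9798 ± 943 CPM in hypoxia and 112 ± 13 CPM in normoxia (SD, n = 3 each). The fitted log2 change of hypoxia over normoxia was 6.45 ± 0.16 (SE), or 87.6-fold, and it was 6.35 without hypoxia replicate 3. It ranked 12th of the 16411 tested genes by size of rise. Bulk samples such as these cannot tell a change in the share of expressing cells from a change in RNA per cell.

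At this level NDRG1 was among the genes with the most counts in the hypoxic cells. It took 0.768%, 0.899% and 0.970% of all counts in the hypoxia libraries, against 0.0115%, 0.0123% and 0.0134% in the normoxia libraries. By CPM it stood 3rd, 3rd and 2nd of all genes in hypoxia, and 1829th, 1666th and 1424th in normoxia. Orders by CPM take no account of transcript length, so they rank genes by counts and not by number of RNA molecules. The genes above it in hypoxia were EEF1A1, a translation elongation factor, and GAPDH, a glycolytic enzyme, with NDRG1 above GAPDH in hypoxia replicate 3. Already in normoxia, 90.1% of tested genes had a lower mean CPM than NDRG1. Its spread between normoxia libraries, a coefficient of variation of 11.6%, was exceeded by 10% of the 1802 genes of like level, whose median was 5.4%.

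**Figure D1:**
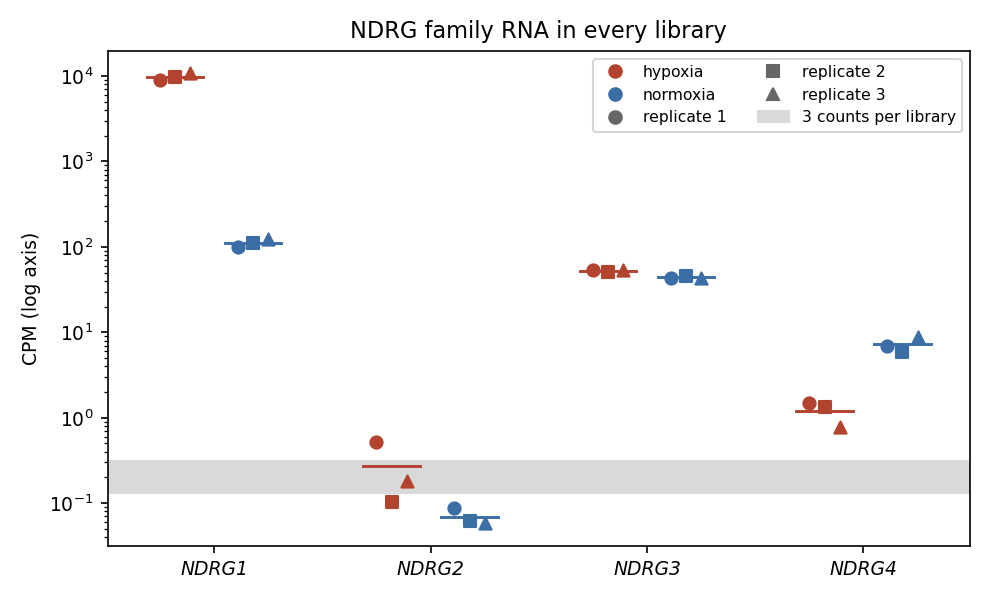
CPM of each member (log axis) in every library, with hypoxia in red on the left and normoxia in blue on the right; symbols give the replicate, bars the group mean, and the grey band the CPM of 3 counts. NDRG1 sits between 8887 and 10770 CPM in hypoxia and between 99.4 and 125 CPM in normoxia, NDRG4 is lower in hypoxia, and NDRG2 lies around the grey band.

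NDRG3 lies on chromosome 20 at 36651766 to 36746078 (GRCh38, minus strand). It had 507, 495 and 887 counts in hypoxia and 982, 746 and 750 counts in normoxia. That is 53.5, 50.5 and 53.4 CPM in hypoxia, against 43.6, 45.7 and 43.8 CPM in normoxia. The groups did not overlap, but the gap between them was small. NDRG3 averaged 52.4 ± 1.71 CPM in hypoxia and 44.4 ± 1.18 CPM in normoxia (SD, n = 3 each). The log2 change was 0.24 ± 0.10 (SE), a 1.18-fold higher level in hypoxia that turned to -0.069 when libraries were scaled by their totals alone. Scaling by totals put the median log2 change of all tested genes at -0.30, where TMM put it at 0.0094, and relative to that median NDRG3 stood at 0.23 under either scaling. Subtracting the median removes a shift common to all genes, so this match cannot tell which scaling is right. By totals alone NDRG3 had 46.2, 46.6 and 48.1 CPM in hypoxia, against 50.2, 50.8 and 46.7 CPM in normoxia, and the groups then overlapped.

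NDRG3 was the steadiest member. Of all tested genes, 81.3% had a larger change in size than NDRG3, in either direction. Its coefficient of variation was 3.27% between hypoxia libraries and 2.65% between normoxia libraries. Of genes at a like level, 93.7% varied more in hypoxia and 88.6% varied more in normoxia. The log2 change was 0.20 without hypoxia replicate 3.

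NDRG4 lies on chromosome 16 at 58462846 to 58513628 (GRCh38, plus strand). It had 14, 13 and 13 counts in hypoxia and 154, 97 and 152 counts in normoxia. That is 1.48, 1.33 and 0.783 CPM in hypoxia, against 6.83, 5.94 and 8.87 CPM in normoxia. All 3 hypoxia libraries were below all 3 normoxia libraries. NDRG4 averaged 1.19 ± 0.365 CPM in hypoxia and 7.22 ± 1.5 CPM in normoxia (SD, n = 3 each). The log2 change was -2.64 ± 0.31 (SE), or 6.25-fold lower in hypoxia, and -2.39 without hypoxia replicate 3. The hypoxia value rests on 40 counts in all, against 403 in normoxia. The 8 glial markers, known from cell types that also express NDRG genes, summed to 8.07 to 10.9 CPM in hypoxia and 20.8 to 22.7 CPM in normoxia. Of these, 3 passed the filter and 2 fell, ALDH1L1 and OLIG2, or 66.7% called against 62.2% of all tested genes. GFAP, which also passed, was not called at -0.41 ± 0.47 on the log2 scale (adjusted p = 0.469, edgeR), and its groups overlapped. The OLIG2 call did not hold with normoxia replicate 1 (adjusted p = 0.0608, edgeR) or 3 (0.0749) left out. AQP4 had 0 counts in hypoxia and 4 in normoxia. All libraries are labelled as a single cell line, and any link of these markers to NDRG4 was not tested. Of all tested genes, 5.06% had a larger change in size, in either direction.

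NDRG2 lies on chromosome 14 at 21016763 to 21070872 (GRCh38, minus strand). It had 5, 1 and 3 counts in hypoxia and 2, 1 and 1 counts in normoxia. These come to 0.527, 0.102 and 0.181 CPM in hypoxia and 0.0887, 0.0613 and 0.0584 CPM in normoxia. The values lie at or near the limit that a count of 0 allows, so no fold is given, and NDRG2 did not pass the filter on low counts. With TMM, the 3 members that passed did not overlap between groups, where 67.9% of all tested genes did not overlap either. Of all tested genes, 62.2% were called at an adjusted p under 0.05, 31.2% higher and 31% lower in hypoxia. That even split, of 5117 genes higher and 5091 lower, became 3421 higher and 6905 lower with library totals alone.

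**Figure D2:**
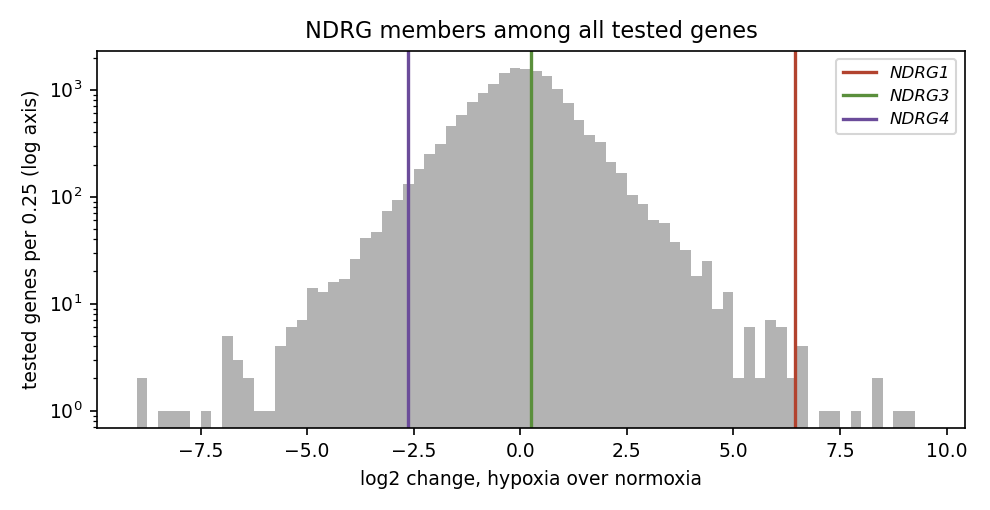
Number of tested genes (log axis) by log2 change of hypoxia over normoxia, in steps of 0.25, with the 3 members that passed the filter marked by lines. NDRG1 at 6.45 stands near the right edge, NDRG4 at -2.64 on the left flank, and NDRG3 at 0.24 in the centre, where scaling by library totals would put it at -0.069.

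The family's make-up was compared per kilobase of the longest principal transcript, since levels of different genes can be compared only per length. The lengths used were 3755 bases for NDRG1, 2880 for NDRG2, 2964 for NDRG3 and 3626 for NDRG4. On this scale the 4 members summed to 2627 ± 251 CPM per kb in hypoxia and 46.8 ± 3.75 CPM per kb in normoxia (SD, n = 3 each). NDRG1 made up 99.2%, 99.3% and 99.4% of that sum in the hypoxia libraries, against 61.4%, 63.3% and 65.9% in the normoxia libraries. NDRG3 made up 0.756%, 0.652% and 0.624% in hypoxia, against 34.1%, 33.1% and 29.2% in normoxia. NDRG4 made up 0.0171%, 0.0140% and 0.00748% in hypoxia, against 4.37%, 3.52% and 4.84% in normoxia. In hypoxia the sum was almost wholly NDRG1, and in normoxia NDRG3 held most of the remainder. NDRG1 was 131, 152 and 159 times NDRG3 per kb in hypoxia, against 1.80, 1.91 and 2.26 times in normoxia. The order of NDRG1 and NDRG3 in normoxia depends on the length used: with the union of all annotated exons, the means were 11.4 ± 1.32 CPM per kb for NDRG1 and 13.7 ± 0.362 for NDRG3. The ratio of the mean NDRG1 level to the mean NDRG3 level in hypoxia was 147 per kb of principal transcript and 61.9 per kb of union exons.

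**Figure D3:**
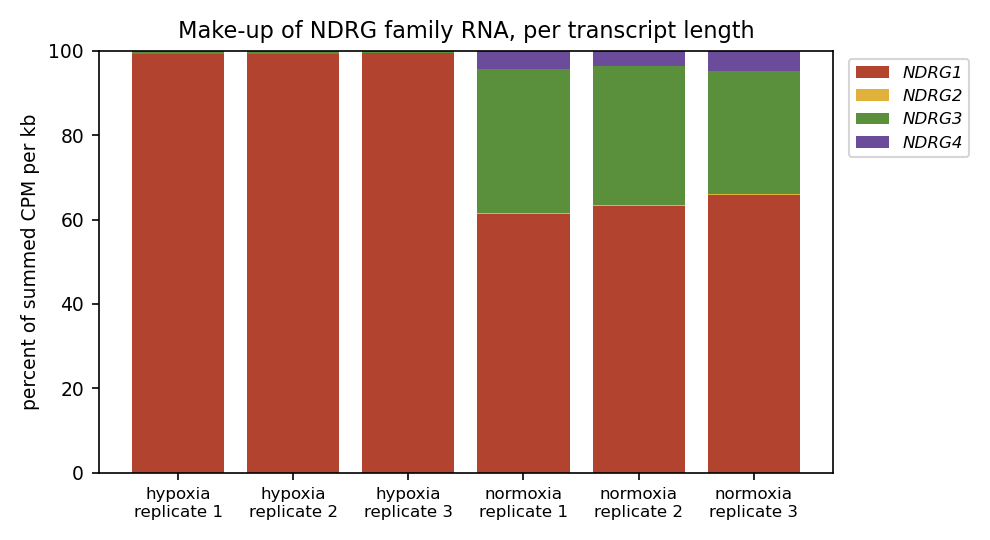
Share of each member in the family's summed CPM per kb of transcript, in percent, for the 3 hypoxia libraries on the left and the 3 normoxia libraries on the right. NDRG1 fills 99.2% to 99.4% of the hypoxia bars and 61.4% to 65.9% of the normoxia bars, where NDRG3 takes most of the rest.

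Known targets of the hypoxia-inducible factors give the scale for NDRG1. Of a panel of 24 such genes, 22 were tested and 22 rose, where 31.2% of all tested genes rose. The panel median was 3.36 on the log2 scale, and the median of all tested genes was 0.0094. Their changes ran from 1.73 for AK4, an adenylate kinase, to 6.12 for HILPDA, a lipid droplet protein, and none exceeded the 6.45 of NDRG1. The family was chosen by its change in these data and the panel with earlier results known, so this order is a description only. EGLN3 and ANGPTL4 did not pass the filter.

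The genes whose profile over the 6 libraries was closest to NDRG1, by distance of centred log2 CPM among 9340 genes with a mean over all 6 libraries of at least 10 CPM, were HILPDA at 0.516, NOG at 0.721, ADM at 0.756, PPFIA4 at 0.861 and CRABP2 at 0.928. HILPDA had 252, 263 and 271 CPM in hypoxia, against 3.73, 3.37 and 4.14 CPM in normoxia. ADM, which encodes the vasodilator peptide adrenomedullin, had 717, 764 and 620 CPM in hypoxia, against 9.5, 11.8 and 13 CPM in normoxia. For a change this large the distance mainly reflects the gap between groups, so the list names genes of like change and gives no further support. HILPDA, NOG, PPFIA4 and CRABP2 averaged 3.75, 3.59, 2.36 and 3.18 CPM in normoxia, and so passed the limit of 10 CPM only through hypoxia. For NDRG3 the closest were CD164, STAG2, ZUP1, SH3GLB2 and PCBP4, at distances of 0.0531 to 0.0885. For NDRG4 they were CSTF2T, CD74, H2BC13, ID3 and FABP6, at 0.316 to 0.433. These averaged 3.35 to 8.76 CPM in hypoxia and passed the limit only through normoxia, and NDRG4 itself lay below it. Their likeness too mainly reflects the gap between groups. CD74, the invariant chain of antigen presentation, had 6.01, 4.79 and 4.03 CPM in hypoxia, against 28.2, 24.2 and 32.7 CPM in normoxia.

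Of 15 transcription factors reported to act on NDRG genes, 12 were tested. At an adjusted p under 0.05 in edgeR's quasi-likelihood test, 9 rose and 2 fell, and their median log2 change was 0.71. The share called was 91.7%, against 62.2% of all tested genes, in a list chosen with earlier results of these data known. EPAS1, the HIF-2 alpha subunit, rose by 3.69 ± 0.31 on the log2 scale (SE, adjusted p = 5.87e-05, edgeR). It had 179, 176 and 356 CPM in hypoxia, against 17.2, 18.2 and 19.7 CPM in normoxia. HIF1A, the HIF-1 alpha subunit, rose by 0.56 ± 0.14 (adjusted p = 0.00544, edgeR), a call lost with library totals alone (adjusted p = 0.146). ARNT, the partner of both, rose by 0.78 ± 0.10 (adjusted p = 4.94e-05, edgeR). Among stress factors, ATF4 rose by 2.47 ± 0.16, EGR1 by 2.09 ± 0.32 and ATF3 by 1.84 ± 0.19.

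MYC, which represses NDRG1, fell by 0.44 ± 0.13 on the log2 scale (adjusted p = 0.011, edgeR), with 294, 261 and 365 CPM in hypoxia, against 389, 410 and 447 CPM in normoxia. With hypoxia replicate 2 left out it missed the threshold (adjusted p = 0.0596, edgeR). MYCN, after which the family is named, had 3 counts in hypoxia and 0 in normoxia. WT1, a zinc finger factor, fell by 0.77 ± 0.23 (adjusted p = 0.0128, edgeR).

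Of 18 genes for the kinases, phosphatases and complex members upstream of NDRG1 phosphorylation, 16 were tested. Of these, 6 rose and 5 fell, and the median change was 0.17 on the log2 scale. The share called was 68.8%, near the 62.2% of all tested genes. SGK1, the kinase best known for phosphorylating NDRG1, had 4.85, 4.59 and 10.7 CPM in hypoxia, against 6.26, 6.99 and 8 CPM in normoxia. The groups overlapped, and its log2 change of -0.035 ± 0.31 was not called (adjusted p = 0.928, edgeR). Without hypoxia replicate 3 it was -0.61 (adjusted p = 0.024), so 1 library decides this value. SGK3, a related kinase, fell by 2.31 ± 0.34 on the log2 scale (adjusted p = 0.000151, edgeR). GSK3A rose by 1.03 ± 0.11 (adjusted p = 1.71e-05, edgeR), while GSK3B, at 0.11 ± 0.10, was not called (adjusted p = 0.375). In the mTORC2 complex, which activates SGK1, MTOR fell by 1.90 ± 0.17 and MAPKAP1 by 1.28 ± 0.13. RICTOR, of the same complex, was not called at 0.34 ± 0.14 (adjusted p = 0.0608, edgeR), and its groups overlapped. Without hypoxia replicate 1 it was called higher at 0.46 (adjusted p = 0.012, edgeR). MLST8 rose by 0.48 ± 0.10, a call lost with library totals alone, and PRR5L rose by 1.33 ± 0.24. PHLPP1, an AKT phosphatase, rose by 1.05 ± 0.16, and its paralogue PHLPP2 fell by 0.72 ± 0.18.

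Of 21 genes for reported binding partners of NDRG proteins, 18 were tested. Here 6 rose and 4 fell, and the median change was 0.014. The share called was 55.6%, against 62.2% of all tested genes. EGLN1, the oxygen sensor that acts on NDRG3 protein, rose by 2.65 ± 0.12 on the log2 scale (adjusted p = 4.32e-08, edgeR). It had 91.1, 101 and 100 CPM in hypoxia, against 16, 13.3 and 17 CPM in normoxia. RABAC1, a prenylated Rab acceptor, rose by 2.23 ± 0.27, and MAPK3, the ERK1 kinase, by 1.20 ± 0.13. ERBB3 rose by 1.08 ± 0.36 (adjusted p = 0.0234, edgeR), a call that did not hold with library totals alone or when any of hypoxia replicate 3, normoxia replicate 1 or normoxia replicate 2 was left out. PPP2CA, a catalytic subunit of PP2A, fell by 1.08 ± 0.16. CTNNB1, which encodes beta-catenin, fell by 0.79 ± 0.089, the receptor gene MET by 0.66 ± 0.13 and RABEP1 by 0.44 ± 0.11. RAB4A, a Rab of early endosomes for which NDRG1 is an effector, was not called at -0.095 ± 0.13 (adjusted p = 0.537, edgeR). With library totals alone it was called lower at -0.41 (adjusted p = 0.0135, edgeR), and with hypoxia replicate 2 left out its value was 0.01. Without hypoxia replicate 3, 7 partners were called lower and 6 higher. The counts in that case were 10 higher and 2 lower for the transcription factors, and 6 higher and 7 lower for the kinases. Over all genes, 5283 were then called higher and 5630 lower.

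**Figure D4:**
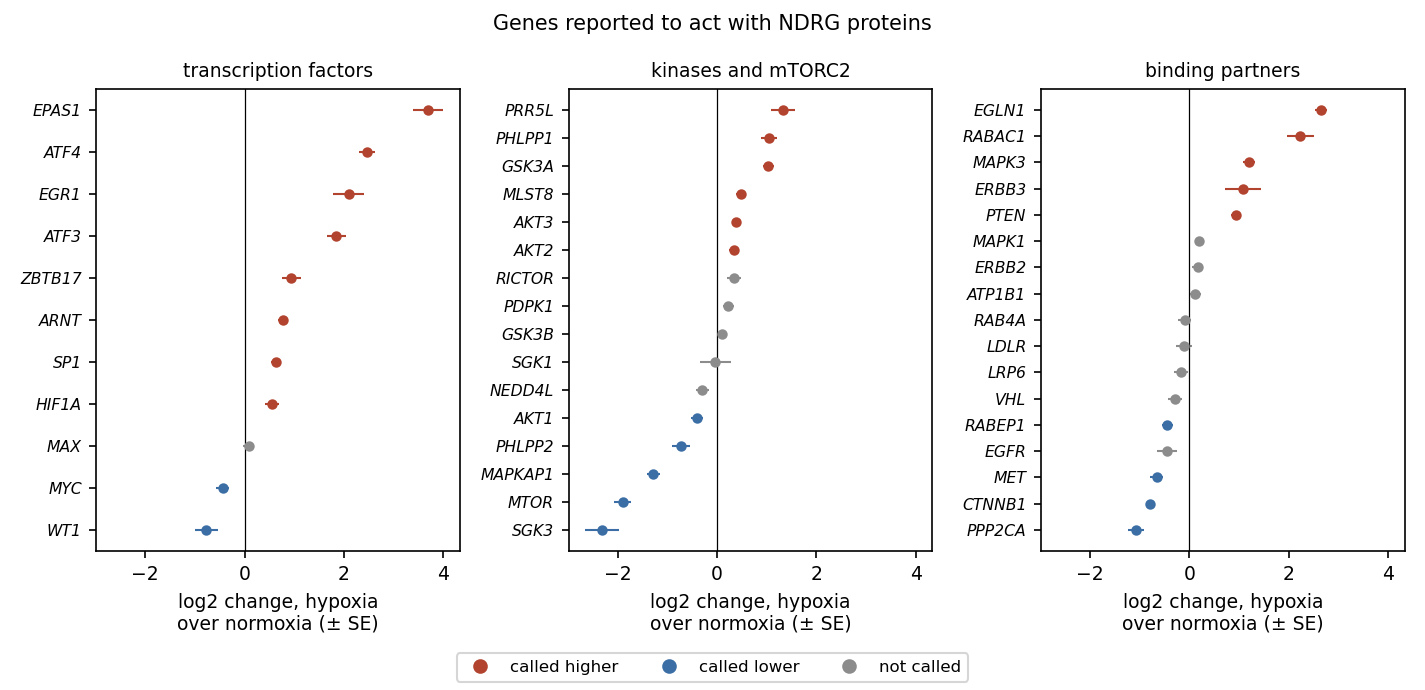
Log2 change of hypoxia over normoxia with its SE for tested transcription factors, kinases and binding partners, except those not reported here, ordered within each panel; red marks genes called higher, blue genes called lower and grey genes not called. EPAS1 at 3.69 and EGLN1 at 2.65 lead their panels, and SGK1 at -0.035 lies on the zero line.

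Further lists place the family among its relatives. Of 21 ABHD genes, which share the hydrolase fold, 20 were tested, of which 3 rose and 8 fell (median 0.053). The share called was 55%, against 62.2% of all tested genes. ABHD4 rose by 1.63 ± 0.10 on the log2 scale, ABHD17C by 0.78 ± 0.27 and ABHD17A by 0.73 ± 0.14. The call of ABHD17C was lost when any single normoxia library was left out (adjusted p = 0.0631 to 0.0899, edgeR), with the replicate block (adjusted p = 0.0629) and with library totals alone (adjusted p = 0.171). ABHD3 fell by 1.64 ± 0.38, ABHD12B by 1.59 ± 0.30, ABHD11 by 1.27 ± 0.19 and ABHD2 by 1.0 ± 0.10. Of 11 other genes of recessive demyelinating neuropathy, 10 were tested, of which 3 rose and 3 fell (median -0.13). Here 60% were called, again near the share of all tested genes. HK1, a hexokinase, rose by 1.76 ± 0.14, and SH3TC2 fell by 3.79 ± 0.18 (adjusted p = 7.57e-08, edgeR). SH3TC2, a Schwann cell endosomal protein, had 4.96, 3.67 and 6.5 CPM in hypoxia, against 78.1, 73.5 and 63.9 CPM in normoxia. GDAP1 fell by 1.88 ± 0.25, and the smaller calls of PRX, SBF1 and FGD4 were each lost in at least 1 alternative.

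Genes next to the members were read by position. WISP1, 5.48 kb from NDRG1, had 9 counts in hypoxia and 1 in normoxia, far below NDRG1. RPL32P20, a pseudogene 24 kb away on the other side, had 5 counts in hypoxia and 0 in normoxia. ST3GAL1, a sialyltransferase gene 153 kb away and picked after its values were seen, rose by 1.87 ± 0.12 on the log2 scale (adjusted p = 4.08e-07, edgeR). ARHGEF40, which overlaps NDRG2 on the opposite strand, rose by 0.94 ± 0.13 (adjusted p = 0.000126, edgeR). The strand setting of the counting is not given in the sources used here, so the few NDRG2 counts cannot be assigned to a strand. ZNF219, 19.2 kb from NDRG2, was not called at 0.12 ± 0.26 (adjusted p = 0.704, edgeR). DSN1, a kinetochore gene 5.71 kb from NDRG3, fell by 1.44 ± 0.20 (adjusted p = 0.000101, edgeR). SLA2, 5.55 kb from NDRG3 on the other side, had 3 counts in hypoxia and 9 in normoxia. SETD6, 1.85 kb from NDRG4, was not called at -0.34 ± 0.24 (adjusted p = 0.232, edgeR). LINC02137, 0.376 kb from NDRG4 on the other side, had 2 counts in hypoxia and 3 in normoxia. GINS3, 56.7 kb away on that side and also picked after its values were seen, fell by 2.07 ± 0.26 (adjusted p = 5.87e-05, edgeR).

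**Figure D5:**
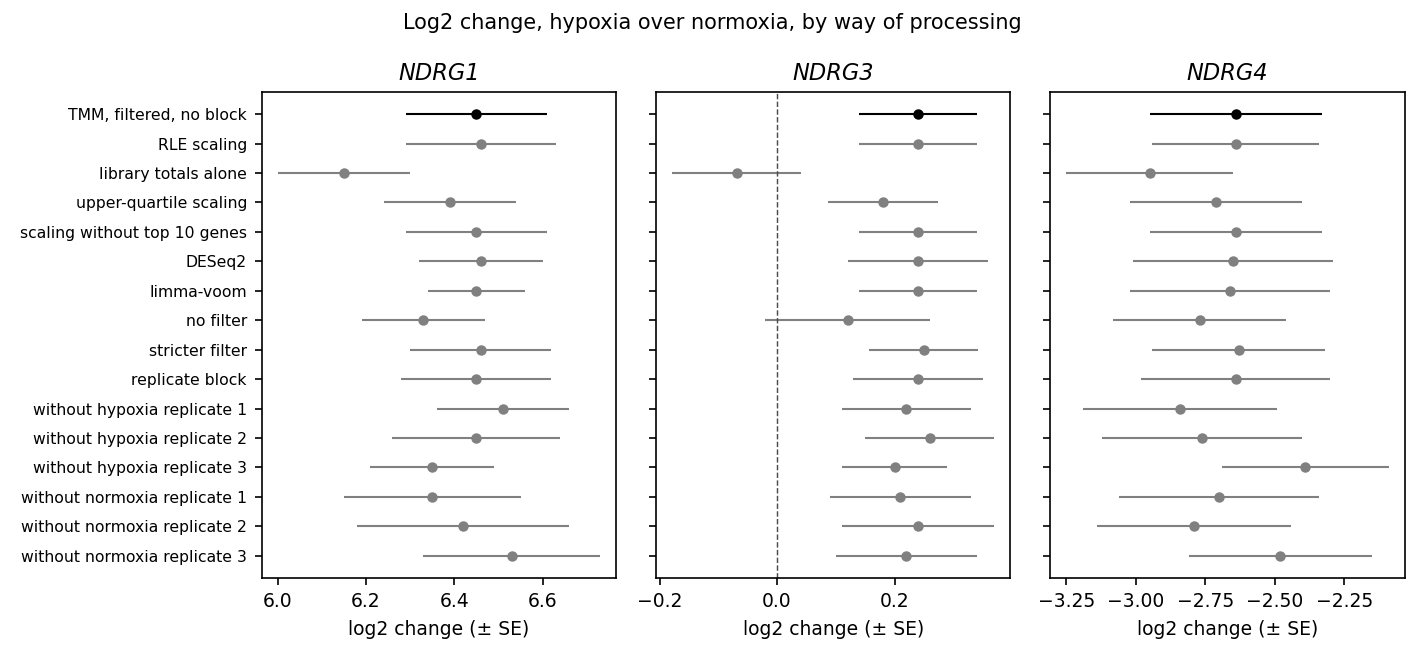
Log2 change of hypoxia over normoxia with its SE for NDRG1, NDRG3 and NDRG4 under each way of processing, the reported value in black at the top. NDRG1 stays between 6.15 and 6.53 and NDRG4 below zero throughout, while NDRG3 crosses zero with library totals alone, at -0.069.

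Relative to the median of all genes tested in the same setting, the log2 change of NDRG1 ran from 6.33 to 6.53, that of NDRG3 from 0.19 to 0.28 and that of NDRG4 from -2.82 to -2.37. On this scale the members' signs were the same in the settings plotted. Subtracting the median removes any shift that a scaling gives to all genes alike. Agreement between scalings was thus fixed in advance and does not test them.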

How the data were processed

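Counts per gene were used as deposited. Per the submitters' processing notes the tools were fastp 0.20.1, HISAT2 2.1.0, featureCounts 2.0.1 and DESeq2 1.37.5 on GRCh38.p13, with no role or settings given. No source used here states the strand setting, the read length, the RNA selection or the annotation. The kit was NEBNext Ultra II, per the labels. The second deposited table, of normalized values, was not used because its cells run together. A line without a gene name, with 0.00243% of counts, was left out. Symbols came from a gene name table (61756 of 61859 genes matched), and lengths and positions from GENCODE 29 (58307 matched).

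Genes were filtered with filterByExpr (minimum count 10, minimum total 15), leaving 16411, scaled by TMM and fitted in edgeR 4.0.16 (R 4.3.3) with the robust quasi-likelihood test, and p-values were adjusted by Benjamini-Hochberg over all tested genes (threshold 0.05). The biological coefficient of variation was 15.3%. Log2 CPM used a prior count of 2. The fit was also run on simulated data, with far fewer and smaller changes than these data hold. That run did not cover changes as large as that of NDRG1. Standard errors are the log2 change over the square root of F. Alternatives used limma 3.58.1 (voom) and DESeq2 1.42.0, other scalings and filters, a replicate block and each library left out. Library pairs of a group differed by more than sampling noise.

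The members and lists were chosen with earlier results of these data known. All 4 members were named. In each related list up to 4 called rises and 4 called falls with non-overlapping groups were named. Preset regulators, kinases and partners and some of the nearest genes were named too. RICTOR, ST3GAL1 and GINS3 were added after their values were seen. The principal transcript was chosen as length after values per kb of union exons were seen. Floors cover counting error only, while the SDs and SEs include the spread between libraries. Some genes of these lists are counted but not reported by name here.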

Additional observations from a re-analysis of the deposited data

How the results depend on the processing

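Most values kept their direction under other scalings, filters and tests. With library totals alone, NDRG1 was 6.15 and NDRG3 -0.069 on the log2 scale, 3 kinases were called higher, 8 partners lower, and 1 neuropathy gene higher and 6 lower. Of all genes, 3421 were then called higher and 6905 lower, and 5051 higher and 6288 lower with no filter. NDRG3 was 0.18 with upper-quartile scaling and 0.12 with no filter, which called 7 partners lower. The causes were not tested, but totals alone moved the median of all tested genes to -0.30. With no filter the fit covered all 40297 genes with a count, not the 16411 filtered ones. Its median of -0.16 and its calls therefore belong to another set of genes. Leaving out each library in turn gave 1 to 2 transcription factors called lower and 4 to 7 partners called lower, the 7 without hypoxia replicate 3. With the union of exons as length, NDRG1 was 61.9 times NDRG3 in hypoxia and 0.832 times in normoxia, against 147 and 1.99 times with the principal transcript, a length chosen after seeing the data.

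Deviations of same-numbered libraries had correlations of -0.106, 0.0864 and -0.0378, and those of differently numbered libraries ran from -0.142 to 0.182. No pairing by number was seen, but 3 libraries a group are too few to exclude it. With the replicate block NDRG1 was 6.45, NDRG3 0.24 and NDRG4 -2.64, and 4862 genes were called higher and 4906 lower, against 5117 and 5091 without it.

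The 3 planned fits on the normalized table were not run. NDRG2, with 9 counts in hypoxia and 4 in normoxia, and NDRG4, with 40 in hypoxia, are limited by depth, and 3 libraries a group limit all values.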
